A study of Mus musculus with 4 samples.

Results

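The transcriptional regulators of brown and beige fat examined here were 10 genes, *Prdm16*, *Ebf2*, *Zfp516*, *Nfia*, *Pparg*, *Ppara*, *Ppargc1a*, *Cebpa*, *Cebpb* and *Klf15*, found in the deposited table by their symbols. All 10 were among its 12661 genes. They were compared between 2 libraries made 48 h after wire injury of the femoral artery and 2 libraries made 48 h after sham operation. RNA came from the outer tissues around the artery, which are mainly perivascular adipose tissue (PVAT), of wild type C57BL/6 female mice aged 11 weeks that had been ovariectomized in both groups. Each library was made from 480 ng of total RNA, and the labels do not say how many mice gave RNA to 1 library. Where the libraries of a group are not from separate animals, the p-values measure only technical spread. The deposited values are signed, log-like numbers that are centred separately for each gene, on a base and a reference that are not stated. They are therefore given in deposited units, no fold change is printed, and the level of one gene cannot be set against that of another. Read counts, and so the depth behind each value, are unknown.

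Brown and beige adipocytes burn fatty acids in mitochondria to make heat. Beige cells arise within white fat depots, PVAT among them, when a set of transcription factors opens and activates the thermogenic genes. PRDM16 is a large zinc finger coregulator that directs this program. EBF2, ZFP516 and NFIA bind DNA at brown fat enhancers and promoters. PPARγ, the nuclear receptor that drives all fat cell formation, PPARα, the receptor that drives fatty acid oxidation, and their coactivator PGC-1α (*Ppargc1a*) turn on lipid and respiratory genes. C/EBPα and C/EBPβ are leucine zipper factors of adipocyte formation, and C/EBPβ is also the partner that PRDM16 uses in precursor cells and an inflammatory factor of macrophages. KLF15 is a Krüppel-like factor of amino acid and glucose use that responds to glucocorticoid. Whether mRNA of these regulators differed between injured and sham-operated vessels was the question put to the data.

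Of the 10 regulators, *Cebpb* alone passed the test, and it rose by 1.17 deposited units after injury (limma, adjusted p = 0.0285). *Ppara* showed a difference of nearly the same size that did not pass (1.05, adjusted p = 0.128). *Prdm16* and *Klf15* had lower means after injury without passing, and *Pparg* had nearly equal means. One member called of 10 compares with 7.43% of all genes called, 3.76% called higher and 3.67% called lower. Both libraries of one group lay beyond both of the other group for 4 of the 10 regulators, 2 above and 2 below, against 61.9% of all genes. Before adjustment, *Cebpb* and *Ppara*, 2 of the 10 regulators, had p-values under 0.05, as did 29.5% of all genes.

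**Figure D1:**
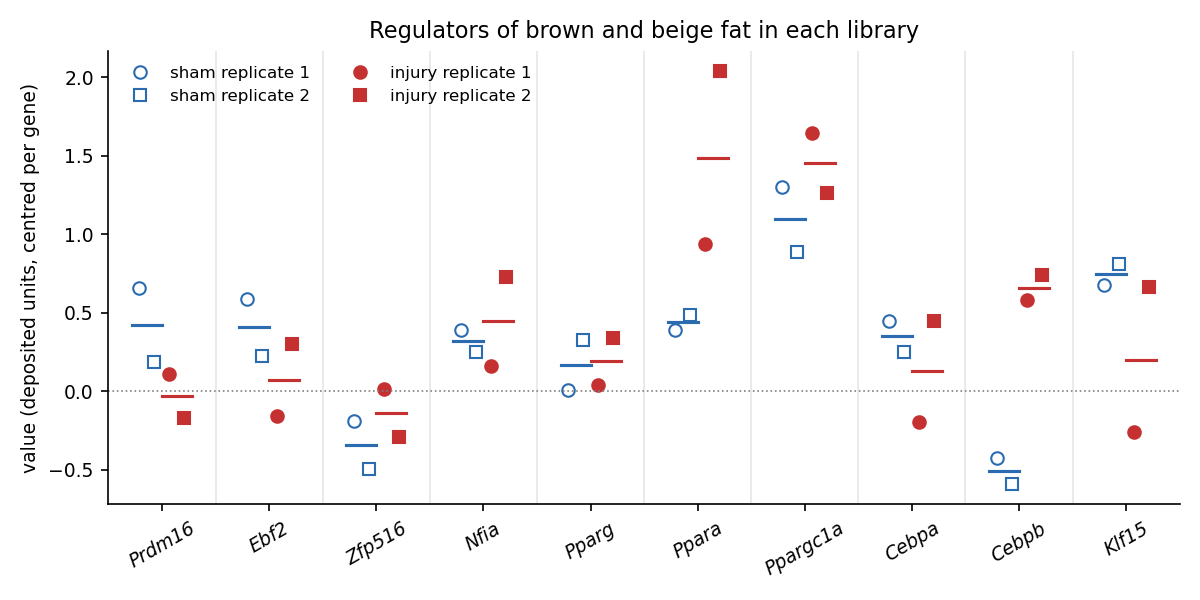
Value of each regulator in each of the 4 libraries, in deposited units on the vertical axis, with open blue symbols for sham operation, filled red symbols for injury, circles for replicate 1, squares for replicate 2 and lines at the group means. Heights are comparable only within a gene because each gene has its own centre. The *Cebpb* values of both injury libraries lie over 1 unit above its sham values of -0.42 and -0.59, while the *Klf15* and *Ppara* values of the injury libraries lie far apart.

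The regulators that define the brown lineage came first. *Prdm16* lies on chromosome 4 of mm9 from 153690234 to 154010982 on the minus strand, in up to 18 exons. Its values were 0.66 and 0.18 in the sham libraries and 0.11 and -0.17 in the injury libraries. Both injury values lay below both sham values, but the gap between the nearest libraries of the groups was smaller than the gap between the sham libraries. The difference of the means was -0.45 ± 0.21 (SE, n = 2 per group), with a 95% interval from -0.98 to 0.08, and did not pass limma's test (adjusted p = 0.221). Leaving out 1 library at a time gave differences between -0.69 and -0.22, none of which passed.

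*Ebf2*, the pioneer factor that marks committed brown precursors, was at 0.59 and 0.23 after sham operation and at -0.16 and 0.30 after injury. The second injury library lay between the sham libraries, so the groups overlapped. The difference was -0.34 ± 0.22, with an interval from -0.89 to 0.22 (limma, adjusted p = 0.366). *Zfp516*, a zinc finger factor that binds the *Ucp1* promoter and is itself induced by cold, was at -0.19 and -0.49 after sham operation and at 0.01 and -0.29 after injury. Its groups overlapped as well, and its difference of 0.20 ± 0.18 had an interval from -0.26 to 0.66 (adjusted p = 0.517). *Nfia*, which opens brown fat enhancers ahead of PPARγ, was at 0.39 and 0.25 against 0.16 and 0.73. The injury libraries enclosed both sham values. The difference of *Nfia* was 0.12 ± 0.22, from -0.43 to 0.67 (adjusted p = 0.746), and it turned to -0.16 when the second injury library was left out. An exon of *Nfia* overlaps an exon of E130114P18Rik on the other strand in the annotation, and whether the authors' counting used strand is not stated.

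The nuclear receptors and their coactivator came next. *Pparg* was at 0.01 and 0.33 after sham operation and at 0.04 and 0.34 after injury. Its 2 libraries stood 0.32 units apart after sham operation and 0.30 after injury, and the groups were nearly superimposed. The difference of 0.02 ± 0.19 had an interval from -0.44 to 0.49 (limma, adjusted p = 0.950), so a change within those bounds was not detectable with these libraries. Its sign turned without the first sham library (-0.14) and without the second injury library (-0.13).

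*Ppara* was at 0.39 and 0.49 after sham operation and at 0.94 and 2.04 after injury. Both injury libraries lay above both sham libraries, which stood close together, whereas the second injury library exceeded the first by 1.10 units. The difference of the means was 1.05 ± 0.36, with an interval from 0.15 to 1.94, an unadjusted p-value of 0.0292 and an adjusted p-value of 0.128 (limma). It was larger than the difference of 96.1% of all genes. The size rested on the second injury library, since the difference was 0.50 without it (adjusted p = 0.118) and 1.60 without the first injury library (adjusted p = 0.0442), where the test was passed. The distance of *Ppara* from *Pparg* in the same library, a measure chosen after the values were seen, was 0.38 and 0.16 after sham operation and 0.90 and 1.69 after injury. It differed by 1.03 between the groups, which did not overlap, and was not tested.

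*Ppargc1a*, the coactivator that couples cold and exercise signals to mitochondrial biogenesis, was at 1.30 and 0.89 after sham operation and at 1.64 and 1.26 after injury. The first library of each group was the higher one, and the second injury library lay just below the first sham library. The difference was 0.36 ± 0.21, with an interval from -0.18 to 0.89 (limma, adjusted p = 0.329), and ranged from 0.15 to 0.56 with 1 library left out, never passing.

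**Figure D2:**
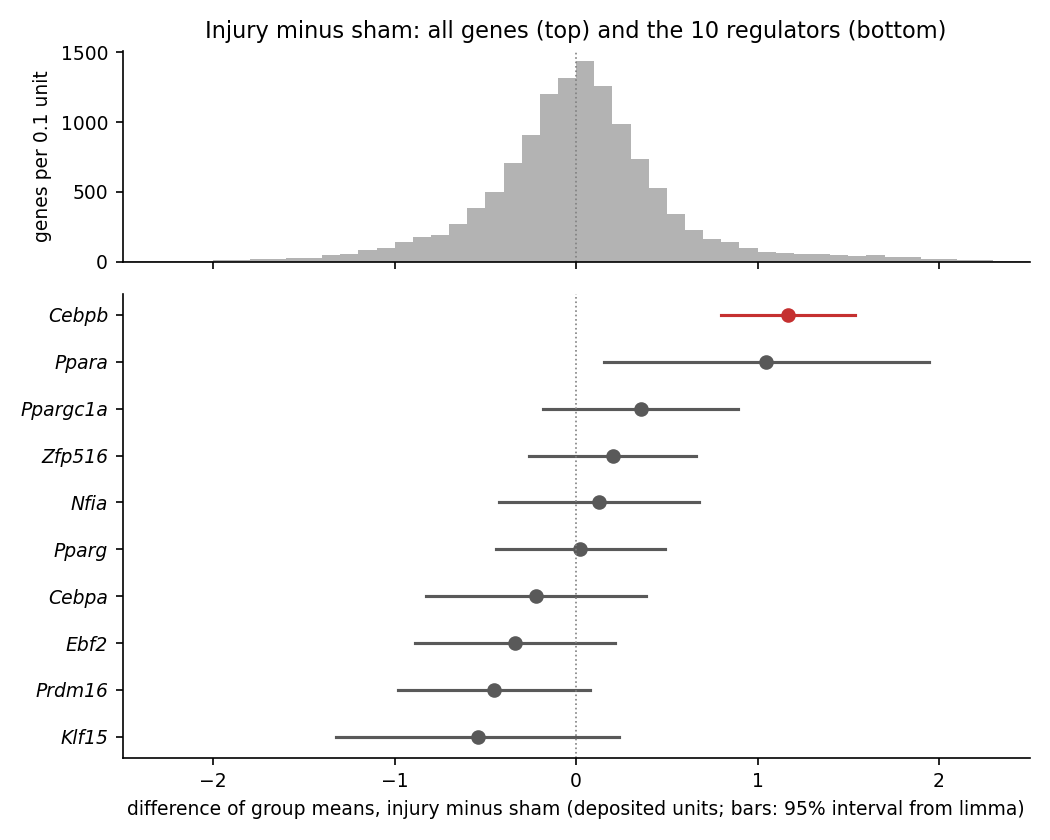
Top, number of genes per 0.1 unit of difference between injury and sham operation over all 12661 genes. Bottom, difference of each regulator in deposited units with its 95% interval from limma and n = 2 per group, red where the adjusted p-value was under 0.05. The interval of *Cebpb* (0.80 to 1.54) and that of *Ppara* (0.15 to 1.94) lie above 0, and those of the other 8 regulators hold 0.

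*Cebpb* and *Cebpa* are single-exon genes that encode paralogous leucine zipper factors. In mm9, *Cebpb* lies on chromosome 2 from 167514415 to 167515918 and *Cebpa* on chromosome 7 from 35904312 to 35906945, both on the plus strand. Their promoter windows, 250 bases before to 50 bases after the start site, are shown because *Cebpb* was the regulator that passed the test and *Cebpa* is its nearest relative among the members. The sequences are from RefSeq (GRCm38.p6), and each was found once on its mm9 chromosome, at chr2:167514165-167514464 and chr7:35904062-35904361. Capitals mark each match to the short CREB site TGACG on either strand (CGTCA where it is on the minus strand) and to the TATA box TATAAA.
Cebpb: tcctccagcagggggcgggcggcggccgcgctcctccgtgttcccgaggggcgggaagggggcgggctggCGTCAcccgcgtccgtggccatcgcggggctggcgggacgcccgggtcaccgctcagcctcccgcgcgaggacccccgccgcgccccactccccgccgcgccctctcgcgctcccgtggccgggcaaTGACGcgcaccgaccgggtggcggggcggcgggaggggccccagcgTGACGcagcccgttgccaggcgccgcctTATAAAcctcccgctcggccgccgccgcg
Cebpa: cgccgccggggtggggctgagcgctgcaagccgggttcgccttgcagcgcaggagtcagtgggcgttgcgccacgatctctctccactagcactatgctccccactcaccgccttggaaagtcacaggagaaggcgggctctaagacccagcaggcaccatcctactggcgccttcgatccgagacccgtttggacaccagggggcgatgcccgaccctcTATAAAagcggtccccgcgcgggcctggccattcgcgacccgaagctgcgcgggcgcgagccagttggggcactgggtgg
The *Cebpb* window is 80.7% G and C and the *Cebpa* window 67.3%, where the median of all 32851 windows is 52.7%. In the *Cebpb* window the first base of the short CREB sites is at -180, -53 and -7 from the annotated start site. That of TATAAA is at 21, after this start site, and whether the match acts as a TATA box was not tested. In the *Cebpa* window TATAAA begins at -30, and no short CREB site was found.

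*Cebpb* was at -0.42 and -0.59 after sham operation and at 0.58 and 0.74 after injury. The libraries of each group lay 0.16 units apart, and more than 1 unit separated the groups. The means were -0.51 ± 0.12 after sham operation and 0.66 ± 0.11 after injury (SD, n = 2 each), and the difference of 1.17 ± 0.15 (SE) had an interval from 0.80 to 1.54. Its unadjusted p-value of 0.000337 ranked 144 among all genes (limma, adjusted p = 0.0285). The difference kept its size with any 1 library left out, from 1.09 to 1.25. The call was lost without the first sham library (adjusted p = 0.176) and without the second (adjusted p = 0.117), where the whole table gave 0 and 1 genes called. It was kept without the first injury library (adjusted p = 0.0454) and without the second (adjusted p = 0.0201). An exon of *Cebpb* overlaps an exon of *Tmem189* on the other strand, and strand use in counting is not stated. *Tmem189*, named for this overlap, was at -0.01 and -0.15 after sham operation and at 0.44 and 0.07 after injury, a difference of 0.33 (adjusted p = 0.278).

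*Cebpa* was at 0.45 and 0.25 after sham operation and at -0.19 and 0.45 after injury. The injury libraries spanned both sham values. The difference was -0.22 ± 0.24, with an interval from -0.83 to 0.38 (limma, adjusted p = 0.585), and it turned to 0.10 without the first injury library. Set against each other within a library, *Cebpb* minus *Cebpa* was -0.87 and -0.84 after sham operation and 0.78 and 0.29 after injury. This distance, which a shift common to a whole library leaves as it is, was 1.39 units higher after injury, and the groups did not overlap.

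*Klf15* was at 0.68 and 0.81 after sham operation and at -0.26 and 0.66 after injury. The second injury library lay just under the sham libraries and the first lay 0.92 units below the second. The difference was -0.54 ± 0.31, with an interval from -1.32 to 0.24 (limma, adjusted p = 0.306). It was -1.01 and passed the test without the second injury library (adjusted p = 0.0235), and it was -0.081 without the first.

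The promoter windows of the members were searched for further motifs as a description. RefSeq windows were found for 8 members, 10 windows in all. *Ebf2* and *Zfp516* were not matched. The short CREB site TGACG was found on either strand in the windows of *Cebpb*, *Klf15*, *Ppara* and *Ppargc1a*, 4 of 10 windows, against 20.8% of all windows. It began at -49 from the start site in *Ppargc1a*, at -222 in *Ppara*, and at -78 and -6 in *Klf15*. TATAAA was found in 3 of 10 windows (13.6% of all), in *Cebpa*, *Cebpb* and *Pparg*. The nuclear receptor core AGGTCA was found in 2 of 10 windows (16.3% of all), both of *Pparg*. The C/EBP site TTGCNNAA was found in 1 window, of *Pparg*, where a match overlaps one to the NFI core TTGGCA (10.8% and 14.1% of all windows). The EBF core CCCNNGGG was found in *Cebpb* and *Ppara* (13.7% of all). No member window held the full CREB site TGACGTCA, which contains the short one (1.79% of all), the longer C/EBP site TTGCNNCAA (2.08%), the NF-kB site GGGANTTCC (1.68%), the glucocorticoid receptor core AGAACA (19.0%) or the STAT site TTCNNNGAA (8.3%).

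In bulk tissue, fewer cells of a type and less RNA per cell cannot be told apart. The markers of all adipocytes were therefore set beside the regulators. *Adipoq*, *Plin1*, *Lipe* and *Cidec*, which define adipocytes, were all in the table, though their abundance cannot be read from centred values. Of 12 markers measured, 0 rose and 1 fell, 6 lay below the sham libraries without overlap and 2 above. These counts compare with 7.43% of all genes called, 30.3% below and 31.6% above, so the calls are near the share of the whole table. The median of the markers was 0.29 and 0.32 after sham operation and -0.15 and 0.19 after injury. *Plin1*, the coat protein of lipid droplets, fell by 0.74 (0.63 and 0.66 against -0.19 and 0.00, limma, adjusted p = 0.0444). *Adipoq*, encoding adiponectin, had a difference of -0.80 (0.13 and 0.25 against -0.98 and -0.24, adjusted p = 0.119). Without the second injury library 5 of the 12 were called, all lower, and without any single one of the other libraries 0. In the injury group 11 of the 12 markers were higher in the second library than in the first, as were 7 of the 10 regulators, all but *Prdm16*, *Zfp516* and *Ppargc1a*. Of all genes, 48.9% were higher in the first injury library. What part the adipocyte share has in the spread of the regulators was not tested.

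The regulators were then described relative to the adipocyte markers, as the value of a regulator minus the median of the 12 markers in the same library. No test was applied. *Ppara* relative to the markers was at 0.10 and 0.17 after sham operation and at 1.09 and 1.85 after injury, a difference of 1.34. *Cebpb* was at -0.72 and -0.91 against 0.73 and 0.55, a difference of 1.46. *Ppargc1a*, whose groups overlapped in the deposited values, was at 1.01 and 0.57 against 1.79 and 1.08, and the groups no longer overlapped. *Zfp516*, *Nfia* and *Pparg* also ceased to overlap, with differences of 0.49, 0.41 and 0.31. For *Zfp516* the second injury library (-0.479) all but tied with the first sham library (-0.481). *Prdm16* (-0.17), *Klf15* (-0.26), *Ebf2* (-0.05) and *Cebpa* (0.07) had overlapping groups on this scale, and neither of the 2 regulators that lay below sham in the deposited values did so relative to the markers. In all, 6 of the 10 regulators lay above sham without overlap and 0 below. The same subtraction put 52.7% of all genes above and 11.3% below, so the count of members is close to that of the whole table.

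**Figure D3:**
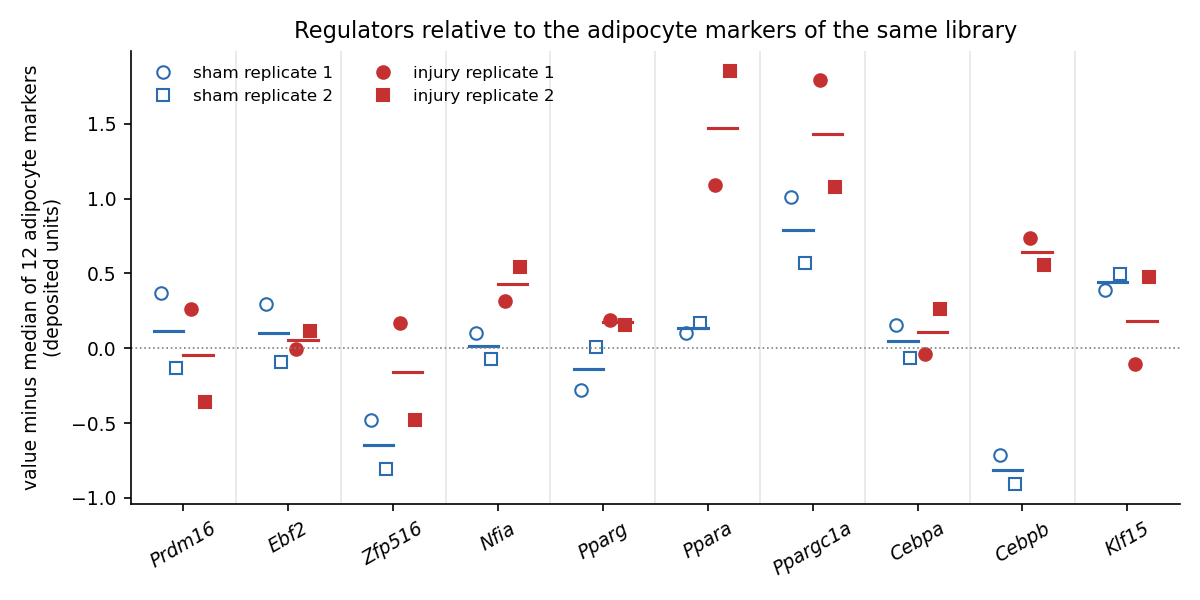
Value of each regulator minus the median of the 12 adipocyte markers in the same library, in deposited units, with symbols as open blue for sham operation, filled red for injury, circles for replicate 1, squares for replicate 2 and lines at the means. *Ppara*, *Ppargc1a*, *Nfia*, *Zfp516*, *Pparg* and *Cebpb* have both injury values above both sham values, and *Prdm16*, *Ebf2*, *Cebpa* and *Klf15* overlap.

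Markers of immune cells differed as well. Macrophage markers rose in 4 of 10 and fell in 0, where 3.76% of all genes rose, with a median of -1.19 and -0.89 after sham operation and 0.46 and -0.14 after injury, and 8 of the 10 were higher in the first injury library. *Cd68* differed by 1.21 (adjusted p = 0.0628) and *Adgre1*, encoding F4/80, by 1.08 (adjusted p = 0.147), while *Fcgr1* rose by 2.14, *Itgam* by 1.61, *Lyz2* by 1.54 and *Csf1r* by 1.33 (limma, adjusted p = 0.0449, 0.0291, 0.0285 and 0.0344). *Cd163*, named after its values were seen, lay below sham without overlap and differed by -0.81 (adjusted p = 0.191). Neutrophil markers rose in 2 of 7, *Retnlg* and *Mmp8*, and all 7 were higher in the first injury library, *S100a8* among them with a difference of 1.86 (adjusted p = 0.0707). Leaving out either sham library removed the calls of both lists, and leaving out the second injury library added calls to both. Among the macrophage markers the calls then made were not all in the higher direction. Without the first injury library fewer macrophage markers and as many neutrophil markers were called. *Cebpb* is expressed in both of these cell types as well as in adipocytes. Its distance from the median of the macrophage markers, a measure chosen after the values were seen, was 0.76 and 0.30 after sham operation and 0.13 and 0.88 after injury, a difference of -0.03 with overlapping groups. Its distance from the neutrophil median was 0.91 and 0.38 against -0.64 and 0.56. Unlike those marker lists, *Cebpb* was not higher in the first injury library (0.58) than in the second (0.74). The part of immune cells in the rise of *Cebpb* was not tested.

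Markers of the vessel wall and stroma differed too. Beside the counts that follow, 3.67% of all genes fell. Smooth muscle markers fell in 4 of 6 with a median difference of -2.15, and the difference was -2.52 for *Myh11* and -2.36 for *Cnn1*. All 6 were higher in the first sham library (medians 1.64 and 0.92) and in the second injury library (medians -1.43 and -0.21). Endothelial markers fell in 2 of 7, with differences of -2.40 for *Vwf* and -1.04 for *Pecam1*. Progenitor and fibroblast markers fell in 4 of 10, among them *Cd34*, with a difference of -0.98, and *Dcn* (0.37 and 0.069 against -0.84 and -0.72). *Pdgfra*, named after its values were seen, lay above sham without overlap (0.41, adjusted p = 0.271). None of 8 skeletal muscle markers passed limma's test (6 at an unadjusted p-value under 0.05), with a difference of -0.67 for *Acta1* (adjusted p = 0.192). Of these 8, 6 had negative differences, while *Pvalb* (1.11, adjusted p = 0.0713) and *Ryr1* (0.40, adjusted p = 0.151), named after their values were seen, lay above sham without overlap. With the replicate number added to the fit as a block, 0 smooth muscle, 1 progenitor, 2 endothelial and 1 skeletal muscle markers were called. Without either sham library none of these 4 lists held a call. Without the first injury library 1 smooth muscle, 1 endothelial and 0 progenitor markers were called, and without the second 5 smooth muscle and 3 endothelial markers. *Prdm16* and *Klf15* are expressed in several of these cell types, and the part of tissue composition in their values was not tested.

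The mRNAs of proteins that work with PRDM16 were compared next. In each list of partners, brakes, paralogs and targets described from here on, 0 genes were called when either sham library was left out, and 0 without the first injury library except *Cdkn1a*. Of 10 measured partners and chromatin cofactors, 0 rose and 1 fell, a share near the 7.43% of all genes called, and their median difference was 0.00 where that of all genes was 0.01. The gene that fell was *Mecom*, the close relative of *Prdm16* that encodes EVI1. It went from 0.62 and 0.50 after sham operation to -0.16 and -0.22 after injury, a difference of -0.75 ± 0.14 (limma, adjusted p = 0.0407). Its libraries agreed more closely within groups than those of *Prdm16* did.

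Among 11 nuclear receptor partners and coactivators of PPARγ, PPARα and PGC-1α, 1 rose and 0 fell, near the 7.43% of all genes called, with a median difference of -0.16. *Esrra*, encoding ERRα, the receptor through which PGC-1α drives respiratory genes, went from -0.35 and -0.06 to 0.84 and 0.68, a difference of 0.97 ± 0.16 (adjusted p = 0.0346). *Ppargc1a* itself did not pass the test, with a difference of 0.36 as given above.

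Of 11 other activators of brown and beige fat, 1 rose and 1 fell, where 7.43% of all genes were called, with a median difference of -0.02. *Foxc2*, a forkhead factor that raises cAMP signaling in fat, fell by 1.37 (0.70 and 0.27 against -0.89 and -0.88, adjusted p = 0.0291). *Bcl6*, a repressor needed to maintain brown fat, rose by 0.90 (-0.27 and -0.44 against 0.63 and 0.45, adjusted p = 0.0343). Among 12 brakes on the brown program, 0 rose and 1 fell, near the same share, with a median difference of -0.04. The gene that fell was *Nrip1*, encoding the corepressor RIP140 that holds down *Ucp1* and oxidative genes. It went from 0.86 and 0.75 to -0.50 and -0.16, a difference of -1.14 ± 0.17 (adjusted p = 0.0303). *Zfp423*, which keeps white adipocytes from turning beige and is named after its values were seen, differed by -0.58 without passing (adjusted p = 0.0934).

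No paralog of the members passed limma's test among 12 measured (3 at an unadjusted p-value under 0.05), and 3 had positive and 9 negative differences (median -0.33). Both injury libraries lay below both sham libraries for 7 of them, against 30.3% of all genes. *Cebpd*, the third adipogenic C/EBP factor, was named after its values were seen and was at -0.13 and -0.05 against -0.22 and -0.43, so its difference of -0.23 (adjusted p = 0.355) was opposite in sign to that of *Cebpb*.

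Target genes of the regulators were grouped by the factor they are known for. A gene may answer to several factors, so no group reads out 1 regulator. Brown adipocyte targets of the whole set rose in 7 of 12 and fell in 0, against 3.76% and 3.67% of all genes, with a median difference of 1.21. Of the 12, 11 lay above sham without overlap, against 31.6% of all genes. The sham libraries themselves differed, and 11 of the 12 were higher in the second (median 0.82) than in the first (median 0.47). *Cidea*, a lipid droplet protein of brown fat, rose by 2.15 (0.62 and 1.67 against 3.32 and 3.27, adjusted p = 0.0323). *Cpt1b*, which admits fatty acids to the mitochondrion, rose by 1.63 (0.59 and 1.22 against 2.53 and 2.55). *Letmd1*, a mitochondrial protein of brown fat, rose from 0.03 and 0.32 to 1.61 and 1.31, and *Pank1*, which makes coenzyme A, from 0.32 and 0.89 to 1.79 and 1.77. With the columns quantile normalized, 2 of 12 were called in place of 7, and *Cidea*, *Cpt1b* and *Pank1* were among those not called (adjusted p = 0.105, 0.0788 and 0.0819), with differences of 2.37, 1.22 and 1.04. Without the second injury library 8 of the 12 were called. *Ucp1*, the uncoupling protein itself, was at 0.97 and 2.76 after sham operation and at 3.82 and 3.02 after injury. Its sham libraries lay 1.79 units apart, and its difference of 1.55 ± 0.61 did not pass (adjusted p = 0.164).

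PPARγ targets of adipocytes rose in 0 and fell in 1 of 13, *Plin1*, near the 7.43% of all genes called, with a median difference of 0.06, beside a difference of 0.02 for *Pparg*. PPARα targets rose in 4 of 12 and fell in 0, against 3.76% and 3.67% of all genes, with a median difference of 0.67, beside a difference of 1.05 for *Ppara*. All 12 were higher in the second sham library (median 0.39) than in the first (median -0.016). They were enzymes of mitochondrial fatty acid oxidation. *Acaa2* rose by 1.25 (0.00 and 0.40 against 1.45 and 1.44, adjusted p = 0.0291), *Hadhb* by 1.07, *Acadvl* by 0.87 and *Acot2* by 0.79. Adjusted p-values of the last 3 were 0.0484, 0.0498 and 0.0498, and with a robust variance prior they were 0.0516, 0.0518 and 0.0515, so 1 of 12 was called. The 2 injury libraries differed by 1.10 in *Ppara* but by 0.01 in *Acaa2*.

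Respiratory targets of PGC-1α rose in 1 of 12 and fell in 0, near the 7.43% of all genes called. *Cs*, encoding citrate synthase, rose by 0.74 (0.01 and 0.16 against 0.86 and 0.79, adjusted p = 0.0435). All 12 lay above sham without overlap, where 31.6% of all genes did, and their median difference was 0.59, beside 0.36 for *Ppargc1a*. All 12 were also higher in the second sham library than in the first, while *Ppargc1a* was higher in the first.

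KLF15 targets of amino acid and glucose use rose in 0 and fell in 0 of 5 (limma, 2 at an unadjusted p-value under 0.05), with a median difference of 0.26, beside -0.54 for *Klf15*. Genes that answer to glucocorticoid, as *Klf15* does, rose in 1 of 8 and fell in 0, where 7.43% of all genes were called, with a median difference of 0.09. The gene that rose was *Cdkn1a*, which encodes the cell cycle inhibitor p21 and answers to many stresses (1.59, adjusted p = 0.0285).

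Inflammatory targets of C/EBPβ rose in 0 and fell in 0 of 9 (limma, 7 at an unadjusted p-value under 0.05), with a median difference of 1.93. *Tnf*, encoding a cytokine of activated macrophages and named after its values were seen, was at -1.61 and -0.71 after sham operation and at 1.72 and 0.055 after injury (adjusted p = 0.0907). *Lcn2*, encoding lipocalin 2 and also named after its values were seen, had a difference of -0.97 in the other direction (adjusted p = 0.0594). Both injury libraries lay above both sham libraries for 6 of the 9 genes and below them for 1, *Lcn2*, against 31.6% and 30.3% of all genes. Of the 9, 8 were higher in the first injury library than in the second, and the 2 injury libraries had medians of 1.46 and 0.055. *Cebpb* stood at 0.58 and 0.74 in the same libraries. Without the second injury library 7 of these 9 genes were called.

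**Figure D4:**
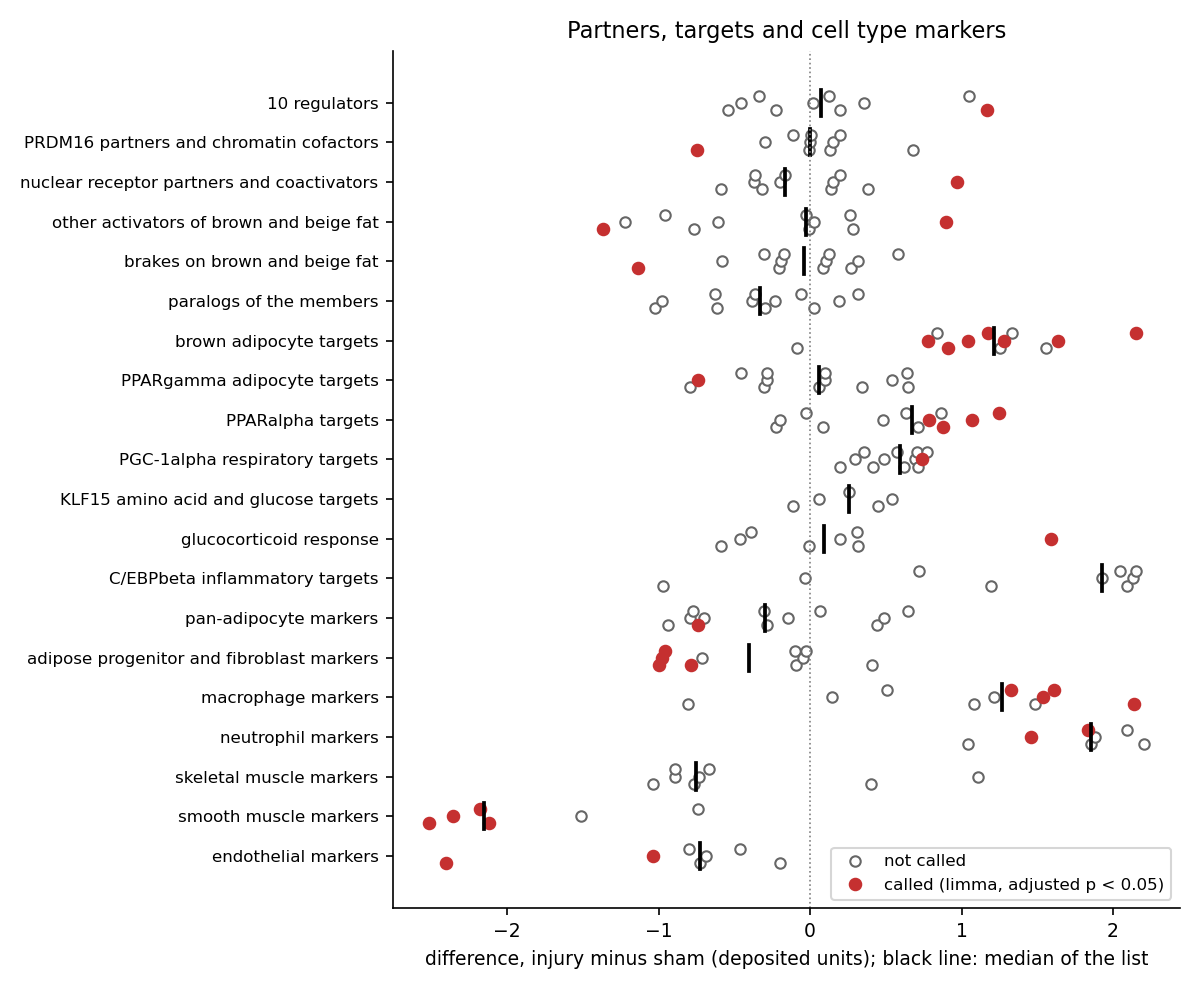
Difference between injury and sham operation in deposited units for the 10 regulators and for each list of partners, brakes, paralogs, targets and cell type markers, with 1 point per gene, red where limma's adjusted p-value was under 0.05 and a black line at the median. The medians of the partner, activator, brake and paralog lists lie between -0.33 and 0.00, and those of the brown adipocyte targets and the macrophage markers lie at 1.21 and 1.27.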

How the data were processed

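The values the authors deposited are a score per gene and library, signed and centred per gene, although described as counts. They run from -2.27 to 6.45, and 50.5% lie below 0. Per the labels and methods, reads from a stranded mRNA kit were processed with FastQC 0.11.8, Cutadapt 1.18 and Trimmomatic 0.39, aligned to mm9 with STAR 2.6.0a, counted with featureCounts and tested with DESeq2 1.28.0. The step from counts to the deposited values, its log base and the filter that left 12661 genes are not given in the sources used here. The library SD over all genes ran from 0.321 to 0.438. Depth is unknown, so precision rests on the spread between 2 libraries.

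Groups were compared with limma 3.58.1 in R 4.3.3 (lmFit and eBayes, group as the only term, 2 residual and 3.48 prior degrees of freedom), two-sided, with Benjamini-Hochberg adjustment over 12661 genes and a threshold of 0.05. An exact permutation test of 2 against 2 libraries cannot go below p = 0.333 and was not used. The code of the fit was also run on simulated data with independent normal noise, and that run is not used as support for any call here. The members and the 19 gene lists were chosen with earlier results of these data known. Beside the members, the text names up to 4 genes per list that passed the test without overlap, largest difference first, and defining markers (*Adipoq*, *Plin1*, *Adgre1*, *Cd68*, *S100a8*, *Acta1*, *Ucp1* and *Cidea*). Others are marked as named after their values were seen, define a list or overlap a member. Results of 1 gene are not reported here. The alternatives tried were omission of each library, a replicate block, other scalings, a robust prior, identical rows (28 genes) counted once, a threshold of 0.1 and a minimum difference of 1. Coordinates are from the GENCODE annotation of NCBIM37 (mm9), which held 11682 symbols (92.3%). Python 3.11.15 with numpy 2.4.6, pandas 2.3.3 and matplotlib 3.10.9 made the remaining tables and plots.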

Additional observations from a re-analysis of the deposited data

How the results depend on the processing

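With all 4 libraries, no regulator changed its direction or its side of the threshold, and the adjusted p-value of *Cebpb* stayed between 0.0266 and 0.0378. The count of all genes called was 941, and 2317 at a threshold of 0.1 and 591 with a minimum difference of 1. With 1 library left out it ran from 0 to 1790 and the count of regulators called from 0 to 2, the lone library being assumed to vary like the other group. Differences then ran from 1.09 to 1.25 for *Cebpb*, from 0.50 to 1.60 for *Ppara*, from -1.01 to -0.081 for *Klf15*, from -0.54 to 0.10 for *Cebpa*, from -0.16 to 0.41 for *Nfia* and from -0.14 to 0.18 for *Pparg*. The sign turned for *Cebpa* without injury replicate 1 (0.10), for *Nfia* without injury replicate 2 (-0.16) and for *Pparg* without sham replicate 1 (-0.14) or injury replicate 2 (-0.13). Genes called then ran from 0 to 0 of the skeletal muscle markers and the PRDM16 partners, from 0 to 1 of the nuclear receptor partners and of the paralogs, from 0 to 2 of the brakes, the PPARα targets, the PGC-1α targets and the glucocorticoid genes, from 0 to 3 of the PPARγ targets, from 0 to 5 of the other activators and from 0 to 7 of the C/EBPβ targets and from 0 to 8 of the brown adipocyte targets.

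The replicate number as a block gave 684 genes, 579 of them shared with the fit without it, and *Cebpb* as the regulator called. With the block, 0 PRDM16 partners, 0 nuclear receptor partners, 0 PPARγ targets, 0 PGC-1α targets, 1 PPARα target and 1 paralog were called, as were 0 smooth muscle, 0 adipocyte, 1 progenitor, 1 skeletal muscle, 2 endothelial, 2 neutrophil and 3 macrophage markers. The numbers mark no stated pairing, and the gaps between replicates 1 and 2 of the groups correlated at -0.09 across genes.

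Quantile normalization called 2 brown adipocyte targets, 2 PPARα targets and 1 C/EBPβ target, scaling to one spread called 2 PGC-1α targets and 1 C/EBPβ target, and a robust prior called 1 PPARα target. Both scalings called 4 neutrophil markers, and the second 1 skeletal muscle marker. A threshold of 0.1 called 3 brakes, 1 paralog, 3 PPARγ, 7 PPARα, 7 PGC-1α, 1 KLF15 and 5 C/EBPβ targets. A minimum difference of 1 left 0 PRDM16 partners, 0 nuclear receptor partners, 1 other activator, 0 PPARγ, 2 PPARα and 0 PGC-1α targets. The cause of these shifts was not tested beyond what each setting changes by construction. Without counts, depth sets no known limit, and 2 libraries per group set the precision.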

Other observations

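Several genes that answer to glucocorticoid, named after their values were seen, followed the replicate number and not the operation. *Zbtb16*, encoding the zinc finger factor PLZF, was at 0.03 and 1.27 in the sham libraries and at -0.01 and 1.29 in the injury libraries. *Fkbp5*, encoding a chaperone of the glucocorticoid receptor, was at -0.88 and 0.40 and at -0.56 and 0.72. *Tsc22d3*, encoding GILZ, was at -0.29 and 0.32 and at -0.18 and 0.84. Of the 8 genes in this list, 6 were higher in the second sham library and 7 in the second injury library. *Klf15*, which belongs to the same response, was also higher in the second library of each group, by 0.13 units after sham operation and 0.92 after injury. *Irf4*, a factor that works with PGC-1α in brown fat and also named after its values were seen, was at 0.86 and 0.07 after sham operation and at -1.29 and 0.31 after injury, the widest gap between injury libraries among these genes. What the libraries with the same number share is not stated.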
